A study of Mus musculus with 6 samples.

Results

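H2AFY and H2AFY2, the human genes for the histone variants macroH2A1 and macroH2A2, were compared by gene and by isoform in 77-5 cells without and with induction of Rbfox1. Their rows were found by gene symbol in the isoform tables, which gave 2 of 58870 genes and 22 of 208621 isoforms, with 20 isoforms of H2AFY and 2 of H2AFY2. The pair was chosen on earlier results of this same contrast, in which isoforms of H2AFY differed between Dox and No Dox. Levels, isoform percentages and fold changes of both genes are therefore a description, and no test is given for them.

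77-5 is a single clone of T-REx-293, a human cell line of the HEK293 family in which the tetracycline repressor is expressed. All 6 samples carried the mouse Ntrk2 minigene, made from a BAC clone, together with an Rbfox1 gene under doxycycline control. In the No Dox group 3 samples were left untreated, and in the Dox group 3 samples received doxycycline for 48 h at 0.5 mg/ml per the labels, whereas the figure legends of the study give the dose per ml in micrograms. Cells given doxycycline without the Rbfox1 gene were not among the samples, so doxycycline and Rbfox1 cannot be told apart. Nothing states that the 3 samples of a group came from separate cultures, and the spread between them may be technical. The labels name mouse as the organism, and the transcripts in the tables are human.

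Total expected counts lay between 59822964 and 65774104 per sample. RBFOX1 was at 6.92 to 8.42 TPM in the No Dox samples and 186.4 to 189.8 TPM in the Dox samples. Of 4 genes listed for HEK293 cells, KRT8, KRT18 and VIM were at no less than 120.1 TPM in every sample and PAX2 was low, at 2.03 to 2.77 TPM. KRT8, KRT18 and VIM fell in Dox by 0.32, 0.39 and 0.10 on the log2 scale (edgeR adjusted p = 2.2e-07, 4.5e-09 and 0.0016), and their part in the results was not tested. Markers of blood, liver and red cells (PTPRC, CD3E, ALB and HBB) did not exceed 0.50 TPM, GFAP of astrocytes did not exceed 0.63 TPM, and COL1A1 of fibroblasts was at 3.91 to 5.05 TPM.

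MacroH2A proteins replace ordinary H2A in some nucleosomes and carry, behind the histone fold, a large globular macro domain. They are found on the inactive X chromosome and on other silent chromatin, and they also act at some active genes and in DNA repair. The transcript of H2AFY is spliced with one or the other of a pair of mutually exclusive exons, giving macroH2A1.1 or macroH2A1.2. The macro domain of macroH2A1.1 binds ADP-ribose, whereas those of macroH2A1.2 and macroH2A2 do not. MacroH2A1.2 is the usual form of proliferating cells, and macroH2A1.1 is more common in differentiated tissue. In the tables the isoforms have only transcript names and lengths, and a human annotation was not used here. Which of them hold the exon of macroH2A1.1 and which that of macroH2A1.2 is therefore not stated below.

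The first comparison asked how much transcript each gene gave in total. H2AFY (ENSG00000113648.16) was at 321.0, 312.7 and 322.0 TPM in the No Dox samples and at 168.3, 168.5 and 170.0 TPM in the Dox samples. The groups did not overlap, and the gene was lower in all Dox samples. The mean went from 318.6 ± 5.08 TPM (SD, n = 3) to 168.9 ± 0.96 TPM, which is 53.0% of the No Dox level. In expected counts, the gene had 24664, 22366 and 23662 in No Dox and 14093, 13133 and 14280 in Dox. The edgeR log2 fold change, which rests on counts, was -0.81 ± 0.02 (SE). Of 18264 genes tested, 22.2% had lower TPM in Dox without overlap, and 325 (1.78%) had a log2 fold change at or below that of H2AFY. Since the samples are bulk RNA, fewer cells with the transcript and less transcript per cell cannot be told apart.

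H2AFY2 (ENSG00000099284.14), the paralog that encodes macroH2A2, stayed near a single level. It was at 43.4, 43.3 and 42.9 TPM in No Dox and at 44.6, 44.7 and 44.3 TPM in Dox. On the TPM scale the Dox samples lay just above the No Dox samples, by a factor of 1.03, and 28.0% of all genes tested had higher TPM in Dox without overlap. In expected counts the groups overlapped, which ranged from 3261 to 3465 without and from 3263 to 3550 with doxycycline. The edgeR log2 fold change was 0.01 ± 0.03 (SE), against a median of 0.00 over all genes. It was above 0 under each scaling tried, up to 0.05 with library size alone. It was -0.01 both without the filter on low counts and without No Dox replicate 3, so a direction is not given for it.

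**Figure D1:**
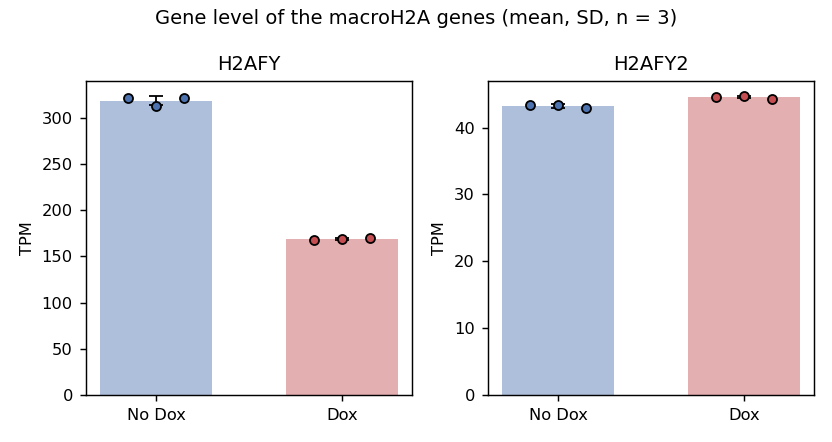
TPM of H2AFY (left) and H2AFY2 (right). Points are samples, bars start at 0 and give the mean of a group, and error bars are SD (n = 3). The Dox samples of H2AFY lie at 168.3 to 170.0 TPM, below the No Dox samples at 312.7 to 322.0 TPM, while those of H2AFY2 lie between 42.9 and 44.7 TPM in both groups.

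Because H2AFY was lower in Dox and H2AFY2 was near the same level in both groups, the balance of the macroH2A transcripts differed between them. TPM is scaled for transcript length and can be set side by side for the 2 genes. H2AFY2 held 11.9%, 12.2% and 11.8% of the summed macroH2A TPM in No Dox, and in Dox it held 20.9%, 21.0% and 20.7%. The ratio of H2AFY to H2AFY2 in TPM went from 7.37 ± 0.14 (SD, n = 3) to 3.79 ± 0.04. H2AFY thus gave the greater part of macroH2A transcripts in every sample. The sum of both genes was 356.1 to 364.9 TPM in No Dox and 212.8 to 214.4 TPM in Dox.

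Next, the isoforms of H2AFY were compared. The isoform percentage is the percent of the TPM of a gene that RSEM assigned to an isoform, and it is an estimate, since isoforms with shared exons compete for the same reads. A pair of isoforms of nearly the same length traded places. H2AFY-201 (ENST00000304332.8, 1881 bases) was at 48.6%, 46.7% and 47.9% of H2AFY in the No Dox samples and at 18.3%, 18.1% and 17.9% in the Dox samples. H2AFY-202 (ENST00000312469.8, 1859 bases) was at 11.8%, 12.2% and 12.6% in No Dox and at 47.9%, 46.6% and 47.1% in Dox. H2AFY-201 was thus the leading isoform in every No Dox sample and H2AFY-202 in every Dox sample. The difference between the group means was -29.6 points for H2AFY-201 and 35.0 points for H2AFY-202, where the SD between replicates did not exceed 0.99 points.

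In TPM, from which the percentage is computed, the group mean of H2AFY-201 differed by -121.5 and that of H2AFY-202 by only 40.9. H2AFY-201 was at 156.1, 146.0 and 154.2 TPM in No Dox and at 30.7, 30.5 and 30.4 TPM in Dox, a level 4.98-fold lower on average. H2AFY-202 was at 37.8, 38.1 and 40.6 TPM in No Dox and at 80.5, 78.5 and 80.1 TPM in Dox, a level 2.05-fold higher. H2AFY-202 was therefore higher in absolute level as well as in share, although its gene was lower. The limma-voom log2 fold changes, from counts per isoform, were -2.33 ± 0.05 (SE) and 1.03 ± 0.03. The ratio of H2AFY-202 to H2AFY-201 in TPM was 0.24, 0.26 and 0.26 in No Dox and 2.62, 2.57 and 2.63 in Dox. Summed, the pair made up 59.9 ± 0.92% of the gene in No Dox and 65.3 ± 0.75% in Dox. In TPM this sum was lower in Dox, at 190.9 ± 5.95 in No Dox and 110.3 ± 1.14 in Dox.

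**Figure D2:**
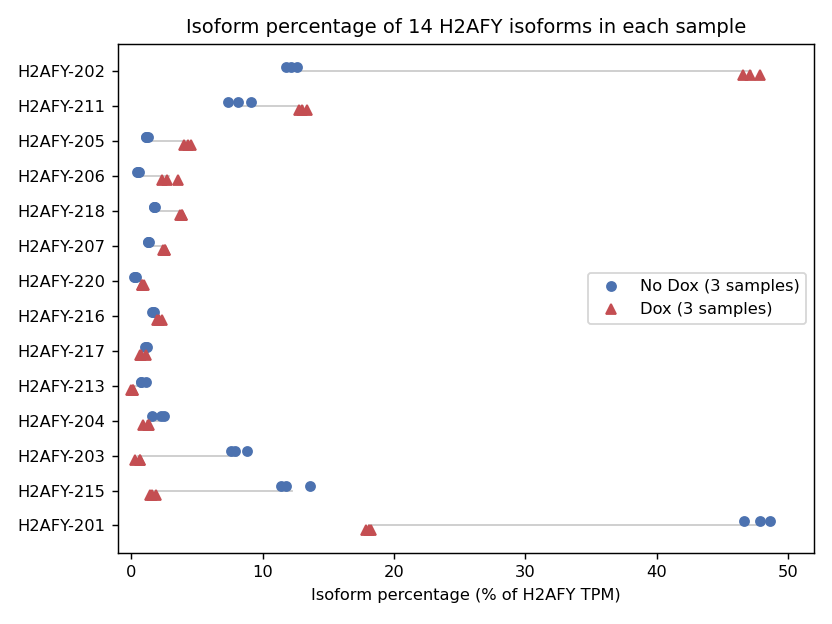
Isoform percentage (x axis, percent of H2AFY TPM) in each No Dox sample (circles) and Dox sample (triangles) for the 14 H2AFY isoforms with a mean of at least 1 TPM in a group, ordered by the difference between groups. H2AFY-202 lies near 12.2% in No Dox and 47.2% in Dox, and H2AFY-201 near 47.7% and 18.1%.

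Alongside H2AFY-201, a pair of lesser isoforms nearly disappeared. H2AFY-215 (1314 bases) was at 37.9, 42.5 and 36.6 TPM in No Dox and at 2.67, 3.15 and 2.46 TPM in Dox, a level 14.1-fold lower. Its share of the gene went from 12.3 ± 1.17% to 1.64 ± 0.21%. H2AFY-203 (1772 bases) was at 28.2, 23.6 and 25.4 TPM in No Dox and at 0.43, 1.13 and 1.10 TPM in Dox. Its mean was 29.0-fold lower, but it rested on 30.9 to 79.9 expected counts per Dox sample, and the Dox samples differed among themselves more widely than for H2AFY-215. Together H2AFY-201, H2AFY-203 and H2AFY-215 held 68.1 ± 1.05% of the gene in No Dox and 20.3 ± 0.36% in Dox. Their summed difference of -182.6 TPM was larger than the -149.6 TPM of the whole gene.

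H2AFY-211 (861 bases) behaved differently in share and in level. It was at 23.7, 25.4 and 29.3 TPM in No Dox and at 22.6, 21.9 and 21.7 TPM in Dox, so its level was slightly lower without overlap. Its share was nevertheless higher, at 8.19 ± 0.86% in No Dox and 13.1 ± 0.32% in Dox, because the total of the gene, by which the share is divided, was lower. The 5 isoforms described so far made up 88.4 ± 0.38% of H2AFY in No Dox and 80.5 ± 0.78% in Dox.

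**Figure D3:**
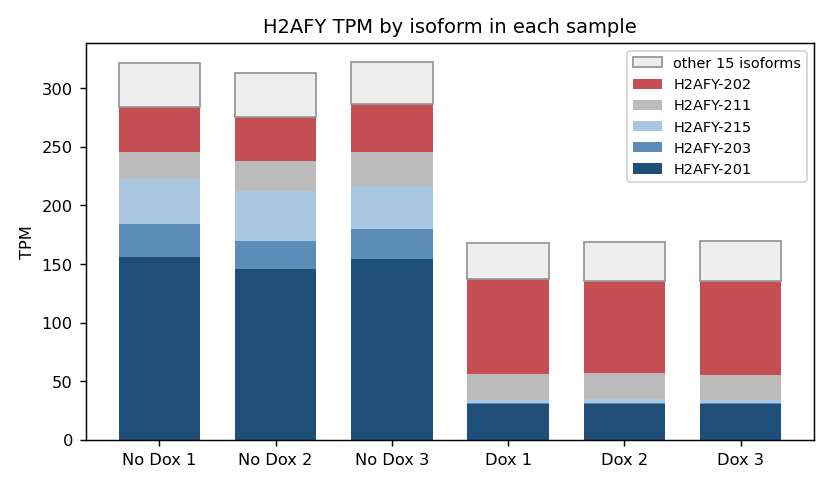
TPM of H2AFY in each sample, stacked by isoform (bars from 0, replicate numbers on the x axis). H2AFY-201, H2AFY-203 and H2AFY-215 (blue) sum to 212.0 to 222.1 TPM in No Dox and 33.8 to 34.8 TPM in Dox, while H2AFY-202 (red) is taller in all Dox samples.

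Of the lesser isoforms with a mean of at least 1 TPM in a group, several moved with H2AFY-202. H2AFY-205 (1744 bases) was at 4.05, 3.46 and 3.55 TPM in No Dox and at 6.76, 7.70 and 7.40 TPM in Dox. H2AFY-206, a short isoform of 498 bases, held 0.44%, 0.62% and 0.50% of the gene in No Dox and 2.71%, 2.37% and 3.54% in Dox, with mean levels of 1.66 and 4.86 TPM. H2AFY-220 (501 bases) was at 1.18, 0.76 and 0.79 TPM in No Dox and at 1.39, 1.60 and 1.44 TPM in Dox, with 10.5 to 21.3 expected counts per sample. All 3 were higher in every Dox sample, and the 2 short ones rest on few counts. H2AFY-218, the longest isoform with 10982 bases, was at 5.63, 5.37 and 5.75 TPM in No Dox and at 6.47, 6.46 and 6.31 TPM in Dox, a level 1.15-fold higher. Its groups did not overlap, and its fold difference was the smallest of these 4 isoforms.

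Others moved with H2AFY-201. H2AFY-204 (924 bases) was at 7.99, 7.03 and 5.13 TPM in No Dox and at 2.26, 1.55 and 2.12 TPM in Dox. H2AFY-213 (966 bases) was at 2.26, 3.64 and 2.49 TPM in No Dox and at 0.16, 0.19 and 0.00 TPM in Dox, where no sample had more than 6.30 expected counts. H2AFY-217 (2789 bases) was at 3.72, 3.65 and 3.43 TPM in No Dox and at 1.32, 1.94 and 1.08 TPM in Dox. These 3 were lower in all Dox samples, though the shares of H2AFY-217 overlapped between the groups. H2AFY-216 (2521 bases) was at 5.02, 5.20 and 5.49 TPM in No Dox and at 3.32, 3.97 and 3.57 TPM in Dox, and its share was slightly higher. H2AFY-207 (2769 bases) was at 4.03, 3.95 and 4.29 TPM in No Dox and at 4.05, 4.34 and 4.34 TPM in Dox, so its levels overlapped. Among these 14 isoforms, those higher in TPM were 498 to 10982 bases long and those lower in TPM 861 to 2789 bases. Summed over all isoforms of the gene, the positive TPM differences came to 49.4 and the negative ones to -199.1.

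The other 6 isoforms of H2AFY had a mean under 1 TPM in both groups and ranged from 0.00 to 1.22 TPM over all samples. Together they made up 0.61 to 1.14% of the gene in any sample. Over all 20 isoforms, the TPM of 5 was higher in Dox without overlap, that of 11 was lower and that of 4 overlapped. Among 92401 isoforms of genes with at least 5 TPM in both groups and 2 or more isoforms, 12.2% were higher and 12.5% lower in TPM by the same criterion. The isoform percentage was higher without overlap for 8 of the 20 (10.6% of all these isoforms) and lower for 6 (9.88%). Percentages of a gene sum to 100, so those of its isoforms are not independent. Of the 20, 16 passed the filter on low counts, and their limma-voom log2 fold changes were above 0 for 6 and below 0 for 10.

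The unit altered the size of these shares. A share of expected counts weights each isoform by its length, and on that scale H2AFY-201 went from 48.4 ± 0.68% to 16.6 ± 0.11% and H2AFY-202 from 12.2 ± 0.45% to 42.7 ± 0.76%. H2AFY-218 differed by 2.04 points in share of TPM, but it held 11.3 ± 0.18% of the expected counts of the gene in No Dox and 22.1 ± 0.28% in Dox. For short isoforms the shares of counts differed by less, at 3.33 ± 0.36% and 4.78 ± 0.10% for H2AFY-211 (1.45 points in place of 4.86) and 0.099 ± 0.018% and 0.49 ± 0.11% for H2AFY-206 (0.39 points in place of 2.35). The mean effective length of H2AFY transcripts, weighted by TPM, went from 1679 ± 11.5 to 1855 ± 15.4 bases. Beside this, the ratio of mean TPM gave a log2 value of -0.92 for H2AFY, where the counts gave -0.81.

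H2AFY2 offered no isoform choice in these cells. H2AFY2-201 (ENST00000373255.9, 1932 bases) took 100% of the gene in every sample. H2AFY2-202 (908 bases) had 0 of 20345 expected counts over the 6 samples, which allows a share of up to 0.0147% (3 counts, counting error only). This limit does not cover how RSEM divides reads that both isoforms share, and isoforms outside the annotation were not examined.

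The shift of H2AFY was then set beside those of other genes. Of 10193 genes with at least 5 TPM in both groups and 2 or more isoforms, 11.5% had an isoform that differed by at least 10 points without overlap. H2AFY met this with 3 isoforms, H2AFY-201, H2AFY-202 and H2AFY-215. The difference of H2AFY-215, -10.6 points, was near the limit of 10, and it was -9.95 points without No Dox replicate 2 and -7.29 points as a share of expected counts. On that scale H2AFY-218 came past the limit, at 10.8 points. The median of the largest shift per gene was 3.88 points, and 58 genes (0.569%), H2AFY included, had a largest shift of at least 35.0 points. As H2AFY was chosen on this contrast, its place in the distribution is a description.

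**Figure D4:**
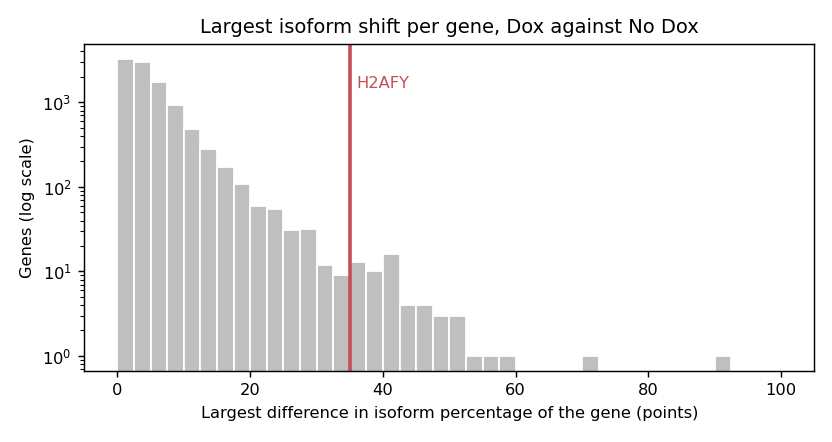
Number of genes (y axis, log scale) by the largest difference in isoform percentage between Dox and No Dox means among their isoforms (x axis, points), for 10193 genes. The red line marks H2AFY at 35.0 points, where 58 genes lie at or beyond it.

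Genes with the most similar pattern were named by the lowest root mean square difference over the 6 samples, each gene centred on its own mean. In log2 CPM, the 5 genes nearest to H2AFY among 11182 were FUCA2, DENND3, TBL1X, TMEM198 and HHLA3, with differences of 0.02 to 0.04. FUCA2, a lysosomal fucosidase gene, went from 57.0 ± 1.70 to 35.6 ± 0.81 TPM. DENND3, at -0.83 on the log2 scale in counts, went only from 9.57 ± 0.44 to 8.04 ± 0.71 TPM, so likeness in counts need not hold in TPM. For H2AFY2 they were MARS, RPL23A, RAC1, DGUOK and RNF167, each with a log2 fold change within 0.01 of 0. In isoform percentage, H2AFY-202 was nearest to COBL-205, MAP4-207, ATP2A2-201, FXR1-216 and CALD1-210, with differences of 0.63 to 1.38 points. MAP4-207, of a microtubule-associated protein, went from 2.60 ± 0.17% to 39.3 ± 0.79% of its gene. The 6 samples form 2 groups, so likeness here is mostly a like difference between Dox and No Dox.

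Genes around macroH2A were compared next, in 4 lists of 37 genes in all, and each gene was tested by edgeR within the fit over all genes. Over the lists 9 genes rose, 13 fell and 15 did not pass, so that 59.5% were called, and of all genes tested 51.4% were called, 24.9% upward and 26.5% downward. The lists were chosen with earlier results of these data known, and the 9 genes include the induced RBFOX1. The median log2 fold change was 0.00 both over the lists and over all genes. With scaling by library size alone 15 rose and 11 fell, and over all genes the split was then 5682 up and 3753 down instead of 4543 and 4841. Directions of small changes thus depend on the scaling.

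Of 9 other histone variant genes, 2 rose, 2 fell and 5 did not pass (median log2 fold change 0.02). H1F0 encodes the linker histone H1.0, which accumulates in cells that stop dividing. It was at 57.7, 56.4 and 57.6 TPM in No Dox and at 86.3, 84.6 and 84.6 TPM in Dox (log2 fold change 0.54 ± 0.03, edgeR adjusted p = 1.3e-10). H2AFZ, which encodes the variant H2A.Z, fell slightly, by 0.14 on the log2 scale (edgeR adjusted p = 0.00016), with 991.5 ± 13.6 TPM in No Dox and 929.2 ± 17.5 TPM in Dox. H2AFX, whose product is phosphorylated at DNA breaks, had 133.1 ± 2.01 TPM in No Dox against 140.9 ± 5.15 TPM in Dox, a difference that did not pass (edgeR adjusted p = 0.14). It passed with library size alone (edgeR adjusted p = 0.0095) and without Dox replicate 3 (edgeR adjusted p = 0.0063). With library size alone 5 genes of this list rose and 2 fell. In TPM, H2AFY was thus below H2AFZ and above H2AFX in both groups.

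Of 8 genes for chaperones, remodellers and the ubiquitin ligase that act on macroH2A, 2 rose, 4 fell and 2 did not pass (median log2 fold change -0.05). With library size alone 3 rose and 2 fell. Of the 4 that fell in counts, SSRP1, SUPT16H and CUL3 overlapped between the groups in TPM, while HELLS did not. The mean TPM of SSRP1 was higher in Dox, at 292.8 ± 5.50 in No Dox and 300.4 ± 5.83 in Dox. ATRX, a chromatin remodeller that limits macroH2A on some chromatin, went from 36.3, 36.0 and 35.0 TPM to 42.1, 41.5 and 43.8 TPM (log2 fold change 0.38 ± 0.03, edgeR adjusted p = 2.9e-08). APLF, a histone chaperone of DNA repair named after its values were seen, rose by 0.74 ± 0.13 on the log2 scale (edgeR adjusted p = 0.00019) at a low level of 0.64 ± 0.09 TPM in No Dox and 1.10 ± 0.08 TPM in Dox.

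Of 13 genes listed around ADP-ribose, the ligand of the macroH2A1.1 macro domain, 2 rose, 6 fell and 5 did not pass (median log2 fold change -0.01). They encode enzymes and readers of ADP-ribose, apart from the NAD synthesis genes NAMPT, which fell, and NMNAT1, which did not pass. The 2 that rose were ADPRHL2 and PARG, named after their values were seen. Their log2 fold changes were 0.19 and 0.09 (edgeR adjusted p = 0.00013 and 0.017). ADPRHL2 was at 49.0 ± 1.44 TPM in No Dox and 57.4 ± 0.77 TPM in Dox. PARP1, the main polymerase of ADP-ribose and a partner of macroH2A1.1, fell by 0.21 on the log2 scale (edgeR adjusted p = 5.2e-07), and its level was 491.6 ± 6.37 TPM in No Dox and 434.9 ± 3.23 TPM in Dox. CHD1L, a remodeller that ADP-ribose switches on, was at 69.3, 67.6 and 66.3 TPM in No Dox and at 54.2, 54.5 and 54.8 TPM in Dox (log2 fold change -0.38 ± 0.03, edgeR adjusted p = 1.7e-08). The macro domain genes MACROD1 and GDAP2 fell by 0.42 and 0.30 on the log2 scale (edgeR adjusted p = 9.2e-05 and 0.00012). In TPM the samples of MACROD1 overlapped, which lay at 16.8 to 20.9 in No Dox and at 15.1 to 17.5 in Dox.

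Of 7 genes of the RBFOX, muscleblind, QKI and DDX5 families, listed as regulators of splicing, 3 rose, 1 fell and 3 did not pass (median log2 fold change 0.02). RBFOX1 is the induced gene, and its paralog RBFOX2 fell by 1.71 on the log2 scale (edgeR adjusted p = 1.4e-16). RBFOX2 was at 48.3 ± 1.58 TPM in No Dox and 17.0 ± 0.88 TPM in Dox. MBNL2, a muscleblind splicing factor, rose by 0.39 on the log2 scale (edgeR adjusted p = 4.4e-06), with 6.89 ± 0.16 TPM in No Dox and 8.35 ± 0.45 TPM in Dox. QKI, which promotes the exon of macroH2A1.1, was at 75.3, 78.7 and 81.3 TPM in No Dox and at 86.0, 83.1 and 86.6 TPM in Dox, with a log2 fold change from counts of -0.01 ± 0.03 (edgeR adjusted p = 0.69). The RNA helicase genes DDX5 and DDX17 had log2 fold changes of 0.00 and 0.02 and did not pass (edgeR adjusted p = 0.99 and 0.39). DDX17 passed with library size alone (log2 fold change 0.07, edgeR adjusted p = 0.0075). In TPM, QKI and DDX17 were higher in Dox without overlap, as were 28.0% of all genes tested. DDX17 lay at 254.0 to 256.7 TPM in No Dox and at 262.5 to 270.3 TPM in Dox.

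**Figure D5:**
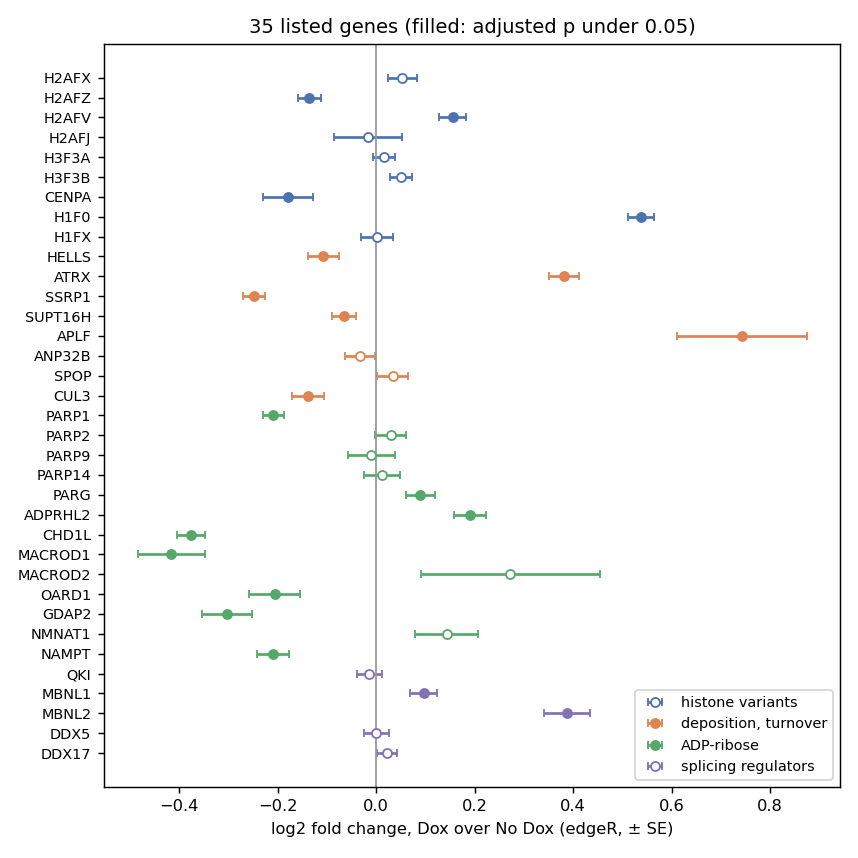
Log2 fold change of Dox over No Dox by edgeR (x axis, with SE) for 35 of the 37 listed genes, coloured by list and filled where the adjusted p was under 0.05. RBFOX1 and RBFOX2, at 4.55 and -1.71, are left out so that the smaller changes can be read, among which H1F0 lies at 0.54 and CHD1L at -0.38.

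Isoforms of the listed genes were tested by limma-voom within the fit over all isoforms. Of 237 isoforms past the filter, 25 rose and 18 fell (18.1%), where 12.6% of all isoforms tested were called, 6.19% upward and 6.44% downward. The splicing regulators, among them the induced RBFOX1, gave 24 of these calls, with 14 isoforms that rose and 10 that fell of 68. In the other lists 10.5%, 10.3% and 12.3% of the isoforms tested were called, no more than over all isoforms. Over all lists, DESeq2 called 38 that rose and 27 that fell. Leaving out a sample left 16 to 21 that rose and 9 to 14 that fell. Without No Dox replicate 2 these counts were 16 and 10, without Dox replicate 1 they were 21 and 9, and 11 fell without No Dox replicate 3 or without Dox replicate 2, where fewer samples enter the test. A shift of at least 10 points without overlap was found in 7 of 32 listed genes, against 11.5% of all genes compared, and 4 of the 7 were splicing regulators. The widest were in MBNL1, where MBNL1-223 went from 1.91 ± 0.29% to 35.2 ± 2.80% of its gene, and in RBFOX2, where RBFOX2-213 went from 1.98 ± 0.41% to 22.4 ± 1.83%. MBNL1 was outside the rule for named genes and was chosen after its values were seen. RBFOX1-220, of another of these 4, went from 67.4 ± 12.2% to 54.4 ± 3.57% of the induced gene. Its No Dox samples were at 61.7%, 59.1% and 81.4%, so its difference of -12.9 points rests in part on No Dox replicate 3. Since the introduced Rbfox1 gene is driven by doxycycline, its expression and a shift in exon choice cannot be told apart there. In QKI, QKI-202 went from 26.2 ± 2.97% to 38.7 ± 2.74% of its gene, a smaller shift than that of H2AFY-202. CHD1L-202 went from 39.2 ± 4.17% to 27.0 ± 1.87%, and GDAP2-201 from 52.2 ± 2.49% to 41.3 ± 6.68%. The difference of GDAP2-201, -10.96 points, was near the limit of 10. It rests in part on Dox replicate 2, as the Dox samples were at 45.3%, 33.55% and 44.92%. SSRP1-205, chosen for mention after its values were seen, went from 1.87 ± 0.86% to 21.3 ± 0.50% of the gene of the histone chaperone SSRP1.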

How the data were processed

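The authors made stranded mRNA libraries, trimmed paired-end reads with cutadapt, mapped them with STAR to GRCh38 and estimated isoforms with RSEM. Neither the versions of these 3 tools in the RNA-seq runs nor the use of strand by RSEM is given in the sources used here. The deposited expected counts are fragments per isoform, not normalized. The deposited TPM values are scaled by the authors for effective length and library. The deposited isoform percentage is a percent of the TPM of the gene. The deposited FPKM values were not used.

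Expected counts were summed per gene, rounded and tested over all genes with edgeR 4.0.16 (TMM, filterByExpr, glmQLFTest). SEs were derived from the F statistic. Isoform counts were tested with limma-voom (limma 3.58.1) in R 4.3.3, with DESeq2 1.42.0 as an alternative. Tests were two-sided, with Benjamini-Hochberg adjustment over all features and a threshold of 0.05. Log2 CPM used a prior count of 2. Both fits were run on simulated counts with known changes, of which the isoform fit recovered a smaller share than the gene fit.

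Members and lists were chosen with earlier results of these data known. Named without a further condition were PARP1, QKI, DDX5, DDX17, H2AFX and H2AFZ. Other listed genes were named with a mean of at least 5 TPM in a group, an adjusted p under 0.05 and an absolute log2 fold change of at least 0.3. The 5 genes nearest to each member were named as well, and the 5 isoforms nearest to its most shifted isoform, for which H2AFY2 had no shift. The alternatives changed the tool, the normalization, the filter or the unit, blocked on the replicate number, or dropped each sample in turn. A human genome or annotation was not used here, so no coordinates or sequences are given.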

Additional observations from a re-analysis of the deposited data

How the results depend on the processing

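H2AFY kept its direction under every alternative run for it. Its log2 fold change of -0.81 became -0.76 with library size alone and -0.92 as a ratio of mean TPM, and without any one sample it ranged from -0.83 to -0.80. The value of H2AFY2, 0.01, became 0.054 with library size alone, -0.0084 with no filter on low counts and 0.043 as a ratio of mean TPM. As shares of expected counts the differences of H2AFY-201 and H2AFY-202 were -31.8 and 30.5 points, while leaving out a sample gave -30.2 to -29.2 points for H2AFY-201 and 34.7 to 35.3 points for H2AFY-202. H2AFY-218 differed by 10.8 points in shares of counts and by 2.04 in isoform percentage. The share of genes with a shifted isoform was 2.34% at 20 points. Listed genes that rose numbered 15 with library size alone, and 8 to 11 without one of the samples. Listed isoforms that rose numbered 38 with DESeq2. When a sample was left out, 16 to 21 rose and 9 to 14 fell. The isoforms called over the whole table numbered 9151, against 15546 with DESeq2 and, with a sample left out, 5518 to 6441. The cause of these differences was not tested. With the replicate number as a block, H2AFY was at -0.81 and 9 listed genes rose and 13 fell. Deviations of samples with the same number correlated by 0.03 to 0.06, so the numbers were not taken to pair samples, although each No Dox sample correlated best with its own number. The replicate block gave 9805 called genes and 7249 called isoforms. The depth limits isoforms with few counts, such as H2AFY-213, H2AFY-206 and H2AFY-220.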
